A study of Mus musculus with 12 samples.

Results

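Genes typical of regulatory T (Treg) cells were followed in OTII cells (CD4+ T cells whose transgenic antigen receptor recognizes a peptide of OVA) primed in WT or Il6-/- recipient mice. The rule took the rows of the count files whose symbol is Foxp3, Ikzf2, Ikzf4, Nrp1, Capg, Izumo1r, Gpr83, Lrrc32 or Itgb8, and it found 9 of the 40840 genes listed. The recipients were sensitized intranasally with house dust mite (HDM) extract and OVA, and the donor cells were sorted on Day 3 or Day 5. There were 3 libraries in each of 4 groups and 12 in all: WT Day 3, Il6-/- Day 3, WT Day 5 and Il6-/- Day 5. The donor cells were OTII cells in every group, so the groups differ in the recipient's Il6 gene and in the day, and Il6 reads of the sorted cells are no check of the recipient's genotype. According to the methods, the donor CD4+ T cells were isolated from OTII spleens, LPS was added to the HDM, and the cells were sorted from mediastinal lymph nodes (mLNs), whereas GEO's labels name blood as the source and leave LPS out. No animal age is given in the labels. The labels do not say that replicates came from separate mice, so p-values measure the spread between these samples.

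Treg cells are CD4+ T cells that restrain immune responses, and Foxp3 is the transcription factor that defines the lineage. Some Treg cells leave the thymus already committed, and others arise from conventional CD4+ T cells in the periphery under TGF-beta and IL-2, while IL-6 is known to oppose that peripheral route. Most genes used as Treg markers are not exclusive to these cells: Nrp1, Ikzf2 and Izumo1r, for example, can also be expressed by activated conventional or anergic CD4+ T cells. In RNA from a bulk population, fewer cells of a type and less RNA per cell cannot be told apart.

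Foxp3 lies on chromosome X at 7439883 to 7461484 (GRCm39, plus strand, identifier ENSMUSG00000039521). RefSeq promoter windows, which run from 250 bases before to 50 bases after a start site and are given on GRCm38.p6, were found for Foxp3 (2 windows), Nrp1, Capg, Izumo1r, Gpr83 and Itgb8. Because IL-2 and IL-6 both signal through STAT proteins, whose sites read TTCNNNGAA, the windows were searched on both strands for these letters, for the forkhead motif TGTTTAC and for the AP-1 motif TGANTCA. The only match in the 7 windows was 1 STAT motif in the Foxp3 window at chrX:7580233-7580532 (plus strand), at bases 112 to 120 of the window. The window is printed because it holds the match, which is in capitals.
Foxp3 promoter: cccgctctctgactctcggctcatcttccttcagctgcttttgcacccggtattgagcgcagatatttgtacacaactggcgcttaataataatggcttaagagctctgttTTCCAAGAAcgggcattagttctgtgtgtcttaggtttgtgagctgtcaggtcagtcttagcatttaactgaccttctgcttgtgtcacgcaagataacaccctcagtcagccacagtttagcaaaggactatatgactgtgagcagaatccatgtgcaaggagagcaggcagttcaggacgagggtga
Among the 32851 windows of this length, 8.3% held TTCNNNGAA, 3.65% held TGTTTAC and 7.81% held TGANTCA. A match of letters is a description and not a binding site.

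The total count on genes was 16125947 to 26111657 per library, and expression is given as CPM, a gene's counts scaled to a common library total, after TMM scaling. Of the reads of a library, 52.5% to 62.2% were counted on genes, with all Day 5 libraries below all Day 3 libraries. A count of 3 in a library corresponded to 0.117 to 0.176 CPM. All 10 T cell markers, among them Cd3e and Cd4, were present in every group, and their summed CPM was 8450 to 10500 on Day 3 and 13200 to 15800 on Day 5. One of them, Trbc1, varied widely within groups. On Day 5 it ran from 5.55 to 543 CPM in WT libraries and from 5.15 to 532 CPM in Il6-/- libraries, and the cause was not tested. These markers do not tell donor from recipient CD4+ T cells. Other cell types were low: the 8 CD8 and NK cell markers summed to 62.5 to 113 CPM in a library, with Klra4 and Klra8 at 0 throughout, the 12 myeloid markers to 101 to 165 CPM, with Clec9a at 0 throughout, and the 12 stromal, platelet and epithelial markers to 84.2 to 168 CPM. The 10 B cell markers summed to 436 to 685 CPM, and Blk and Fcrla were at 0 in all WT Day 5 libraries. Most of each of these 4 sums came from 1 gene. Group means were 62.65 to 74.69 CPM for Cd8b1, with Cd8a at 0.0652 to 1.04, and 439.5 to 644.6 CPM for Ighm. They were 84.53 to 103.7 CPM for the myeloid marker Cst3 and 85.42 to 142 CPM for the stromal marker Pecam1. The part of other cell types in the results was not tested.

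All 9 genes passed the filter on low counts, Itgb8 through its Day 5 libraries. Lrrc32 passed mainly through its Il6-/- libraries, which held 13 to 32 reads against 1 to 18 in WT libraries. Changes were tested in 1 edgeR quasi-likelihood model of the 12 libraries over 13570 genes, and a gene was called at a Benjamini-Hochberg adjusted p under 0.05. The genes did not all change one way. Between days, Ikzf2, Ikzf4, Nrp1 and Izumo1r rose in both genotypes, Foxp3 fell and Gpr83 rose in WT recipients, and Capg and Lrrc32 passed in neither. Because Itgb8 was admitted by its Day 5 libraries alone, its day comparison is given as reads and not as a test. Between genotypes, Nrp1 was higher in Il6-/- recipients on both days, and Ikzf2 was lower on Day 3.

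**Figure D1:**
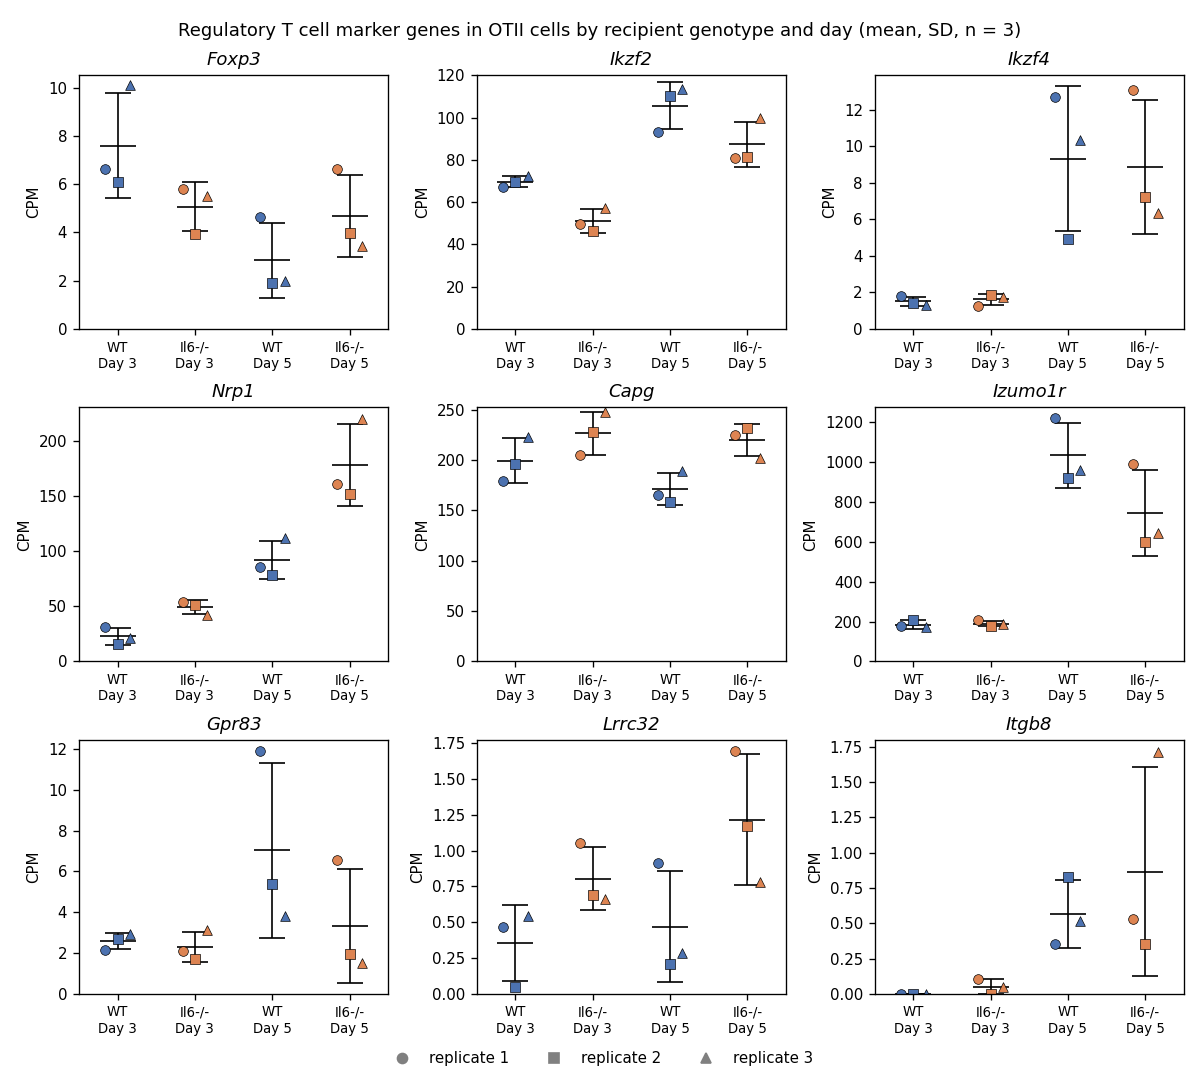
CPM (vertical axes, linear from 0) of the 9 Treg marker genes in the 12 libraries by recipient genotype and day (WT blue, Il6-/- orange, symbol by replicate number), with lines at the mean and the mean ± SD (n = 3). Nrp1 lies higher in Il6-/- than in WT recipients on both days, Izumo1r lies between 171 and 208 CPM on Day 3 and between 597 and 1222 CPM on Day 5, and Foxp3 does not exceed 10.1 CPM.

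Per length of exon, the genes spanned a wide range of levels. On Day 3 in WT recipients, Izumo1r (66.6 CPM per kb) and Capg (59.4) led with overlapping libraries, followed by Ikzf2 (5.33), Foxp3 (1.66) and Nrp1 (1.49), the latter pair overlapping, and then by Gpr83 (0.469), Ikzf4 (0.215), Lrrc32 (0.0745) and Itgb8 with no read. On Day 5 in WT recipients, Izumo1r stood alone at 372 CPM per kb, before Capg (51.0), Ikzf2 (8.09), Nrp1 (6.02), Ikzf4 (1.33), Gpr83 (1.28), Foxp3 (0.621), Lrrc32 (0.0988) and Itgb8 (0.0504). In this order Ikzf2 overlapped Nrp1, Ikzf4 overlapped Gpr83, Gpr83 overlapped Foxp3, and Lrrc32 overlapped Itgb8. The order in Il6-/- recipients differed mainly by Nrp1, which stood above Foxp3 without overlap on Day 3 (3.22 against 1.11 CPM per kb) and above Ikzf2 without overlap on Day 5 (11.7 against 6.69).

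Foxp3, the lineage factor, was expressed at a few CPM. In WT recipients it was at 6.63, 6.08 and 10.1 CPM on Day 3 and at 4.63, 1.92 and 1.97 CPM on Day 5. In Il6-/- recipients it was at 5.81, 3.92 and 5.50 CPM on Day 3 and at 6.61, 3.98 and 3.43 CPM on Day 5. On Day 3 every WT library lay above every Il6-/- library, whereas on Day 5 the highest WT library lay above the lower pair of Il6-/- libraries.

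Between the days, Foxp3 fell in WT recipients, with a log2 fold change of -1.42 ± 0.36 (SE) and an adjusted p of 0.0033. In Il6-/- recipients the log2 fold change was -0.12 ± 0.35 (adjusted p = 0.79, 95% interval -0.86 to 0.63). The genotype difference (Il6-/- minus WT) was -0.58 ± 0.34 on Day 3 (adjusted p = 0.31) and 0.72 ± 0.36 on Day 5 (adjusted p = 0.29), on the log2 scale. The difference between these changes was 1.30 ± 0.50 on the log2 scale (adjusted p = 0.15). On Day 5, libraries with the same replicate number in the 2 genotypes deviated together over all genes, so the number was also used as a block. With the block, the Day 5 difference of Foxp3 was 0.77 and passed (adjusted p = 0.049). Without replicate 1 of the WT Day 5 group, the unblocked difference between days was 1.84 (adjusted p = 0.046), and it also passed without the filter on low counts (1.30, adjusted p = 0.020). The counts behind these levels were 37 to 186 reads per library. Exons of Flicr, a long noncoding RNA on the same strand, cover 18.6% of the exon bases of Foxp3. On the opposite strand, those of Ccdc22, Gm36995 and Ppp1r3f cover 12.9%, 8.15% and 5.81%. Reads in these bases cannot be assigned to 1 gene when strand is ignored, and strand would not separate Flicr. Whether such reads were counted for Foxp3 is not known.

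Ikzf2 encodes Helios and Ikzf4 encodes Eos, zinc-finger factors of the Ikaros family that are abundant in Treg cells. Ikzf2 (chromosome 1, 69570373 to 69727004, minus strand) was at 67.2, 69.4 and 72.3 CPM in WT recipients and at 49.5, 46.6 and 57.5 CPM in Il6-/- ones on Day 3. On Day 5 Ikzf2 was at 93.2, 110 and 114 CPM in WT recipients and at 81.0, 81.5 and 99.7 CPM in Il6-/- ones. The genotypes did not overlap on Day 3, and overlapped on Day 5.

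Ikzf2 was lower in Il6-/- recipients on Day 3 by a log2 fold change of -0.44 ± 0.11 (adjusted p = 0.013). On Day 5 the log2 fold change was -0.27 ± 0.11 (adjusted p = 0.16), and with the replicate block it was -0.28 (adjusted p = 0.039). The difference between the days was 0.17 ± 0.15 on the log2 scale (adjusted p = 0.58, interval -0.15 to 0.49). The Day 3 call was lost without replicate 3 of WT (adjusted p = 0.054) or without replicate 1 or 2 of Il6-/- recipients (0.060 and 0.072). From Day 3 to Day 5 Ikzf2 rose in WT (log2 fold change 0.60 ± 0.11, adjusted p = 2.0e-04) and in Il6-/- recipients (0.77 ± 0.11, adjusted p = 1.8e-05).

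Ikzf4 (chromosome 10, 128466712 to 128505227, minus strand) was low but detected on Day 3, with 24 to 46 reads per library. It was at 1.79, 1.43 and 1.30 CPM in WT recipients and at 1.27, 1.86 and 1.75 CPM in Il6-/- ones. The Day 5 levels were 12.7, 4.93 and 10.3 CPM in WT recipients and 13.1, 7.20 and 6.34 CPM in Il6-/- ones. Every Day 5 library lay above every Day 3 library, while the genotypes overlapped on both days. The rise between the days was 2.61 ± 0.37 on the log2 scale in WT (adjusted p = 2.3e-05) and 2.44 ± 0.37 in Il6-/- recipients (adjusted p = 3.6e-05). The genotype differences were 0.10 ± 0.39 on Day 3 (adjusted p = 0.91) and -0.07 ± 0.33 on Day 5 (adjusted p = 0.94).

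The other members of the Ikaros family, a transcription factor group in lymphocytes, were tested beside these. Of the 5 family members, Ikzf1, Ikzf2 and Ikzf3 were lower in Il6-/- recipients on Day 3, with log2 fold changes of -0.31 ± 0.09 for Ikzf1 (adjusted p = 0.026) and -0.64 ± 0.12 for Ikzf3 (adjusted p = 0.0022), and 0 were higher. The background was 6.19% of all genes called lower in this comparison, and 0 of the 5 passed on Day 5 with edgeR or DESeq2 (1, Ikzf2, at an unadjusted p under 0.05 and with the replicate block). The call of Ikzf1 was lost without replicate 2 or 3 of WT or without any 1 of the 3 Il6-/- Day 3 libraries (adjusted p from 0.061 to 0.11), and the count of 3 fell to 1 without replicate 3 of WT or replicate 1 or 2 of Il6-/- recipients. Between the days Ikzf1 fell in both genotypes (-0.62 ± 0.09 in WT and -0.32 ± 0.09 in Il6-/- recipients), opposite to Ikzf2 and Ikzf4. The Il6-/- fall of Ikzf1 was lost with upper-quartile scaling (-0.089, adjusted p = 0.36) and with no scaling (-0.16, adjusted p = 0.12). Ikzf3 rose in Il6-/- recipients (0.74 ± 0.12, adjusted p = 6.2e-05).

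Nrp1, which encodes neuropilin-1, a semaphorin and VEGF co-receptor found on thymus-derived Treg cells, differed by genotype on both days. On Day 3 it was at 30.8, 16.2 and 20.9 CPM in WT recipients and at 54.0, 51.4 and 41.8 CPM in Il6-/- ones. Day 5 values were 85.8, 78.0 and 112 CPM in WT recipients and 161, 152 and 220 CPM in Il6-/- ones. The genotypes did not overlap on either day, and both rose between the days.

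On the log2 scale, Nrp1 (chromosome 8, 129085085 to 129231082, plus strand) was 1.11 ± 0.21 higher in Il6-/- recipients on Day 3 (adjusted p = 0.0025) and 0.95 ± 0.20 higher on Day 5 (adjusted p = 0.012). The difference between these changes was -0.15 ± 0.28 (adjusted p = 0.82, interval -0.76 to 0.45). The Day 5 call was lost without replicate 3 of Il6-/- (adjusted p = 0.064) or without replicate 1 or 2 of WT recipients (0.063 and 0.066), whereas the Day 3 call held in all 12 fits that left out 1 library. The rise from Day 3 to Day 5 was 2.01 ± 0.21 in WT (adjusted p = 1.2e-06) and 1.86 ± 0.20 in Il6-/- recipients (adjusted p = 1.5e-06).

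Izumo1r encodes folate receptor 4, a surface marker of Treg and of anergic CD4+ T cells, and Gpr83 a G protein-coupled receptor enriched in Treg cells. The genes are neighbours on chromosome 9, Gpr83 at 14771180 to 14782085 (plus strand) and Izumo1r at 14797110 to 14815245 (minus strand), with 15024 bases between them. Izumo1r was at 175, 208 and 171 CPM in WT recipients and at 206, 178 and 185 CPM in Il6-/- ones on Day 3. Its Day 5 levels were 1222, 920 and 960 CPM in WT recipients and 992, 597 and 644 CPM in Il6-/- ones. Every Day 5 library was far above every Day 3 library, and on Day 5 only replicate 1 of Il6-/- recipients reached the WT range.

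Izumo1r rose between the days by 2.48 ± 0.17 on the log2 scale in WT (adjusted p = 3.3e-08) and by 1.97 ± 0.17 in Il6-/- recipients (adjusted p = 1.2e-07). The genotype difference was 0.04 ± 0.16 on Day 3 (adjusted p = 0.92) and -0.47 ± 0.16 on Day 5 (adjusted p = 0.11). With the replicate block the Day 5 difference was -0.50 (adjusted p = 0.0016), with DESeq2 -0.45 (adjusted p = 0.047), and without the filter on low counts -0.47 (adjusted p = 4.8e-06). The difference between days was -0.51 ± 0.23 (adjusted p = 0.22), and without that filter -0.50 (adjusted p = 0.0020). Without replicate 1 of the Il6-/- Day 5 group, the unblocked Day 5 difference was -0.74 (adjusted p = 0.0039) and the difference between days -0.77 (adjusted p = 0.014).

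Gpr83 was at 2.14, 2.67 and 2.93 CPM in WT recipients and at 2.11, 1.70 and 3.13 CPM in Il6-/- ones on Day 3. Gpr83 on Day 5 was at 11.9, 5.40 and 3.81 CPM in WT recipients and at 6.56, 1.93 and 1.51 CPM in Il6-/- ones. In WT recipients all Day 5 libraries lay above all Day 3 libraries, and in Il6-/- recipients the days overlapped. Its rise in WT recipients was 1.45 ± 0.50 on the log2 scale (adjusted p = 0.023), and without replicate 1 of WT Day 5 it was 0.83 (adjusted p = 0.18). That call was also lost without replicate 1 or 2 of WT Day 3 (0.073 and 0.053). In Il6-/- recipients the change was 0.53 ± 0.52 (adjusted p = 0.39). On Day 5 the genotype difference was -1.07 ± 0.49 (adjusted p = 0.24), with the replicate block -1.19 (adjusted p = 0.0080), without the filter on low counts -1.07 (adjusted p = 0.011), and without replicate 1 of Il6-/- recipients -2.03 (adjusted p = 0.015). The difference between the days, -0.92 ± 0.72, did not pass (adjusted p = 0.51).

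**Figure D2:**
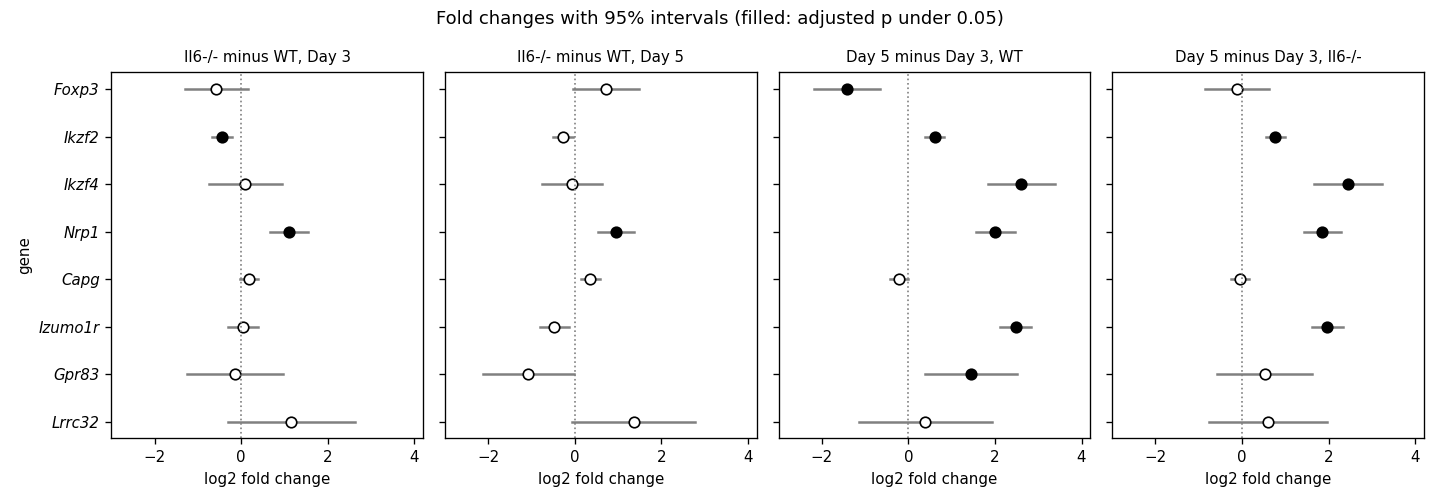
Log2 fold changes (horizontal axes) of 8 of the genes in the 4 comparisons, with 95% intervals and filled points where the adjusted p was under 0.05; Itgb8 is left out because it had no read in WT recipients on Day 3. Nrp1 is filled in all 4 panels, and the intervals of Gpr83 and Lrrc32 are wide.

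Capg encodes an actin filament capping protein that is higher in Treg than in naive T cells. It was at 179, 196 and 223 CPM in WT recipients and at 205, 228 and 247 CPM in Il6-/- ones on Day 3. Capg on Day 5 was at 166, 159 and 189 CPM in WT recipients and at 225, 232 and 202 CPM in Il6-/- ones. The genotypes overlapped on Day 3 and did not on Day 5. The genotype difference was 0.18 ± 0.10 on the log2 scale on Day 3 (adjusted p = 0.27) and 0.36 ± 0.10 on Day 5 (adjusted p = 0.056), which with the replicate block passed (0.36, adjusted p = 0.0089), as it did without replicate 1 of WT Day 3 or replicate 3 of WT Day 5 (adjusted p = 0.046 and 0.023). The Day 5 difference of Capg passed in 6 of 10 other settings, the block, RLE scaling, no scaling, no filter, DESeq2 and limma-trend, with an adjusted p of 0.0037 to 0.11 over the 10. Between the days Capg did not pass in WT (-0.22 ± 0.10, adjusted p = 0.075) or in Il6-/- recipients (-0.04 ± 0.10, adjusted p = 0.72). The WT comparison passed with no filter (-0.29, adjusted p = 0.010) and with DESeq2 (-0.26, adjusted p = 0.049), was -0.024 with upper-quartile scaling (adjusted p = 0.85), and passed without replicate 1 of WT Day 3, replicate 3 of WT Day 5 or replicate 2 of Il6-/- Day 5 (-0.30, -0.30 and -0.27, adjusted p from 0.031 to 0.037).

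Lrrc32 and Itgb8 belong to the handling of TGF-beta: Lrrc32 encodes GARP, which tethers latent TGF-beta to the surface of activated Treg cells, and Itgb8 the integrin subunit beta 8, which with alpha V releases the active cytokine. Both were near the limit of detection. Lrrc32 had 12, 1 and 10 reads in WT and 20, 13 and 14 in Il6-/- recipients on Day 3. Day 5 libraries of WT recipients had 18, 4 and 6 reads and those of Il6-/- recipients 32, 20 and 15. The genotypes did not overlap in reads on Day 3 and overlapped on Day 5. Summed over the group, the ratio of Il6-/- to WT recipients was 2.23 on Day 3 (95% counting interval 1.33 to 3.85) and 2.61 on Day 5 (1.66 to 4.21), intervals that cover counting error only. Against the spread between libraries neither passed, with log2 fold changes of 1.16 ± 0.69 (adjusted p = 0.31) and 1.37 ± 0.67 (adjusted p = 0.27). These genotype values of Lrrc32 are descriptions, since the filter admitted the gene mainly through its Il6-/- libraries.

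Itgb8 had 0 reads in the 3 WT libraries on Day 3 and 2, 0 and 1 reads in Il6-/- recipients. On Day 5 it had 7, 16 and 11 reads in WT and 10, 6 and 33 reads in Il6-/- recipients. Every Day 5 library exceeded every Day 3 library. Against a floor of 3 counts over the WT Day 3 group, Itgb8 was at least 12.1-fold higher on Day 5, and in Il6-/- recipients the ratio of the days was 17.4 (counting interval 5.62 to 87.4). These ratios are descriptions, since the filter admitted the gene through its Day 5 reads. The genotypes overlapped on Day 5 (log2 fold change 0.61 ± 0.70, adjusted p = 0.69). Itgav, its partner subunit, had Day 3 means of 8.59 ± 0.85 (WT) and 8.58 ± 1.25 CPM (Il6-/-) and Day 5 means of 11.9 ± 1.88 and 10.9 ± 0.73 CPM (SD, n = 3).

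By count, 2 of the 9 genes passed between genotypes on Day 3 (Nrp1 higher, Ikzf2 lower), beside 13.7% of all genes tested. Between genotypes 4 of 9 did not overlap (Foxp3, Ikzf2, Nrp1 and Lrrc32), beside 36.2%. On Day 5 1 of 9 passed (Nrp1), beside 4.61%, and 2 of 9 did not overlap, beside 19.6%. With the replicate block 6 of 9 passed on Day 5, beside 11.7%: Foxp3, Nrp1 and Capg were higher and Ikzf2, Izumo1r and Gpr83 lower in Il6-/- recipients. In the difference between the days 0 of 9 passed with edgeR and 0 with DESeq2, beside 4.92% of all genes. At an unadjusted p under 0.05 there were 2, Foxp3 and Izumo1r. The median log2 fold change was 0.10 on Day 3 and 0.36 on Day 5, against 0.01 over all genes on each day, and 0.07 and 0.14 without Itgb8. These counts and medians include Lrrc32, for which they are no test, since the filter admitted it mainly through Il6-/- libraries.

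Itgb8, which the filter admitted through Day 5, is left out of the day counts first. Between the days, 6 of the other 8 genes passed in WT recipients (5 higher, 1 lower), beside 56.7% of all genes (29.5% higher, 27.1% lower). The same 6 did not overlap, beside 63.3%. In Il6-/- recipients 4 of 8 passed, all higher, beside 60.5% (30.4% higher, 30.1% lower), and these 4 did not overlap, beside 65.8%. With Itgb8 counted, the numbers were 7 of 9 and 5 of 9, which is no test of that gene. The median log2 fold change without Itgb8 was 1.03 in WT and 0.68 in Il6-/- recipients, against 0.09 over all genes in each. With Itgb8 it was 1.45 and 0.77, and with Itgb8 at its bound in WT recipients it stayed at 1.45. The signs of the day changes were the same in both genotypes for the 8 genes other than Itgb8, beside 84.8% of all genes. With Itgb8 it was 9 of 9, but the sign of that gene followed from the filter. In Il6-/- recipients the day signs of Capg and Foxp3 turned positive with upper-quartile scaling and with no scaling. The signs of the genotype changes were the same on both days for 6 of 9, beside 57.1%, the exceptions being Foxp3, Ikzf4 and Izumo1r. The 6 include Lrrc32, which the filter admitted mainly through Il6-/- libraries. The comparisons of days and of genotypes are drawn from the same 4 groups and share libraries. Under upper-quartile scaling the median of all genes between the days moved to 0.29 in WT and 0.32 in Il6-/- recipients.

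**Figure D3:**
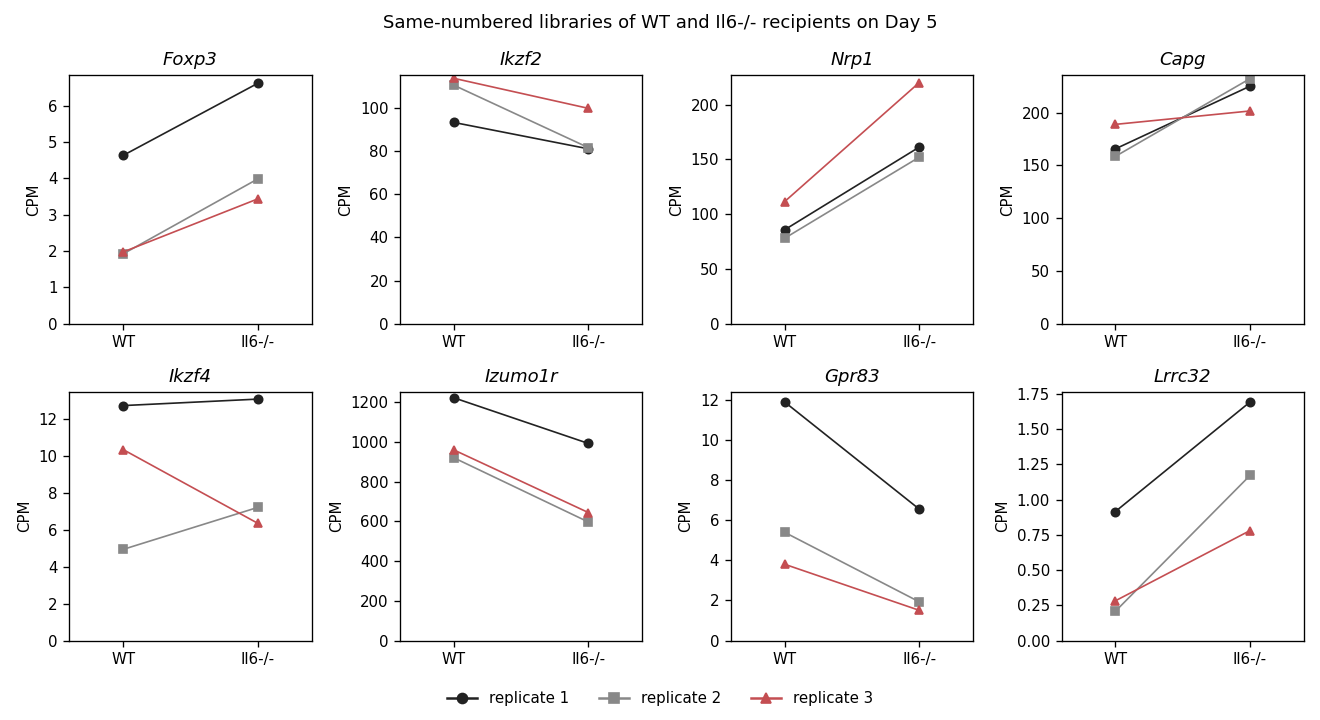
CPM (vertical axes, linear from 0) of 8 of the genes in the Day 5 libraries of WT and Il6-/- recipients, with a line joining libraries of the same replicate number. Replicate 1 is highest in both genotypes for Foxp3, Ikzf4, Izumo1r, Gpr83 and Lrrc32, and replicate 3 for Ikzf2 and Nrp1.

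Whether the genes moved together was described in 2 ways. Among the Day 5 libraries, replicate 1 was the highest of its group in both genotypes for 5 of the 9 genes (Foxp3, Ikzf4, Izumo1r, Gpr83 and Lrrc32), replicate 3 for Ikzf2 and Nrp1, and Capg and Itgb8 had no common highest number. Same-numbered Day 5 libraries also deviated together over all genes, with correlations of 0.129 to 0.243. The share of all genes with a common highest number was not counted, so these counts are not read as a trait of the 9 genes. As a ratio to the next WT library, replicate 1 of these 5 genes stood out least for Ikzf4 (12.7 against 10.3 CPM) and most for Lrrc32 (0.915 against 0.282 CPM, from 18 and 6 reads). For comparison, on Day 5 the B cell marker sum was 436 CPM in replicate 1 of WT against 445 and 471 in the others, and 485 against 570 and 516 in Il6-/- recipients, and the CD8 and NK cell sum was lowest in replicate 1 of both genotypes (90.3 and 86.0 CPM). The myeloid sum was 130 CPM in replicate 1 of WT against 119 and 165, and 134 against 127 and 127 in Il6-/- recipients, and the stromal, platelet and epithelial sum was 168 against 140 and 149, and 157 against 161 and 134. Each of these sums came mostly from 1 gene (Ighm, Cd8b1, Cst3 or Pecam1), so it describes that gene more than its list. The part of other cell types in the replicate differences was not tested. On Day 3 no number was highest for more than 3 genes in both genotypes.

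Likeness was also measured as the root mean square difference of centred log2 CPM over the 12 libraries, for which smaller is more alike and which depends on the shared day change and on the size of each gene's own changes. Of the pairs of Treg marker genes, Ikzf4 and Izumo1r were the closest, at 0.365, with 4 of the 13569 other genes tested nearer to Ikzf4 than Izumo1r was, and 63 nearer to Izumo1r than Ikzf4 was. The genes nearest to Foxp3 were Gm22806 (0.353), Pnldc1 (0.40) and Fastkd5 (0.406). Nearest to the others were Malt1 for Ikzf2 (0.098), Gm15860 for Ikzf4 (0.281), Dhrs3 for Nrp1 (0.33), Crtc2 for Capg (0.0894), C730014E05Rik for Izumo1r (0.21), Ppp1r3f for Gpr83 (0.384), Kdf1 for Lrrc32 (0.468) and Klf9 for Itgb8 (0.427).

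Other surface, secreted and signaling molecules associated with Treg cells were followed as a list of 26 genes, of which 23 were tested. The list was chosen with earlier results of these data known, so its counts beside all genes are descriptions. On Day 3, 11 were higher in Il6-/- recipients, beside 7.52% of all genes, and 2 were lower, beside 6.19%, with a list median of 0.41 on the log2 scale. On Day 5, 6 were higher, beside 1.27%, and 0 were lower (1 at an unadjusted p under 0.05, 0 with DESeq2), beside 3.35%, with a median of 0.39 (10 and 0 with the replicate block). The Day 5 count was 2 without replicate 1 or 2 of WT and 3 without replicate 2 of Il6-/- recipients. Il2ra, the high-affinity IL-2 receptor chain CD25, averaged 26.8 ± 9.35 CPM (WT) and 80.1 ± 17.1 CPM (Il6-/-) on Day 3 (SD, n = 3), a log2 fold change of 1.59 ± 0.26 (adjusted p = 9.7e-04). On Day 5 it was at 3.00 ± 0.59 and 6.28 ± 2.51 CPM, a log2 fold change of 1.06 ± 0.33 that did not pass (adjusted p = 0.084) and that passed with the block (1.02, adjusted p = 0.0089), with DESeq2 (1.09, adjusted p = 0.047), with no filter (1.07, adjusted p = 3.6e-08) and without replicate 3 of Il6-/- Day 5 (1.37, adjusted p = 0.028). Tnfrsf1b, which encodes TNF receptor 2, had the smallest p of the list on Day 5 and was higher in Il6-/- recipients, at 218 ± 23.2 against 130.0 ± 5.03 CPM (0.75 ± 0.10, adjusted p = 0.0011). Ebi3, a subunit of IL-35, was also higher on Day 5 (0.83 ± 0.20, adjusted p = 0.029), a call lost with only the groups compared and without replicate 1 or 2 of WT Day 5 or replicate 2 or 3 of Il6-/- Day 5 (adjusted p from 0.061 to 0.12). Swap70, a B and T cell guanine nucleotide exchange factor, and Cd83, an activation marker found on Treg cells, were higher on both days, by 0.83 ± 0.11 and 1.20 ± 0.16 on Day 3 and by 0.66 ± 0.11 and 0.81 ± 0.16 on Day 5. The Day 5 call of Cd83 was lost without replicate 1 or 2 of WT Day 5 (adjusted p = 0.058 and 0.054). Icos, a costimulatory receptor of the CD28 family, was lower in Il6-/- recipients on Day 3 (-1.04 ± 0.09, adjusted p = 9.6e-06), and this difference was smaller on Day 5 (difference between days 0.91 ± 0.13, adjusted p = 0.0030). Tigit, an inhibitory receptor, was the other gene lower on Day 3, at 7.65 ± 2.06 CPM in Il6-/- against 53.5 ± 7.35 CPM in WT recipients (-2.80 ± 0.49, adjusted p = 0.0016), whereas on Day 5 it was at 65.8 ± 36.4 and 49.99 ± 28.3 CPM. In the difference between days, 3 of the 23 passed, all positive, beside 4.92% of all genes: Icos, Tigit (3.19 ± 0.65, adjusted p = 0.015) and Ccr4, a chemokine receptor (0.86 ± 0.24, adjusted p = 0.0499). The call of Ccr4 was lost in 10 of the 12 fits without 1 library, held without replicate 3 of WT Day 5 or replicate 1 of Il6-/- Day 5, and had an adjusted p of 0.012 to 0.13 over the 12.

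Ctla4, the inhibitory receptor that Treg cells express constitutively, did not pass between genotypes. Its Day 3 means were 132 ± 8.23 CPM (WT) and 119 ± 24.0 CPM (Il6-/-), and its Day 5 means 178 ± 28.5 and 159 ± 33.0 CPM. The log2 fold changes between genotypes were -0.15 ± 0.16 (adjusted p = 0.61) and -0.16 ± 0.16 (adjusted p = 0.63). It rose between the days in WT (0.43 ± 0.16, adjusted p = 0.030) and in Il6-/- recipients (0.42 ± 0.16, adjusted p = 0.033), and each call was lost in 4 of the 12 fits without 1 library, namely without replicate 1 or 3 of WT on either day (adjusted p from 0.073 to 0.12), and without replicate 1 or 2 on Day 3 or replicate 1 or 3 on Day 5 in Il6-/- recipients (0.092 to 0.16). Between the days, Il2ra fell in both genotypes, by 3.15 ± 0.31 on the log2 scale in WT (adjusted p = 6.8e-07) and by 3.68 ± 0.29 in Il6-/- recipients (adjusted p = 7.4e-08). Penk, which encodes the enkephalin precursor made by some Treg cells, rose from 1.52 to 23.6 CPM (WT means) and from 4.51 to 35.1 CPM (Il6-/- means) (log2 fold changes 3.99 ± 0.30 and 2.96 ± 0.27). Tnfrsf9 and Tnfrsf18, costimulatory TNF receptors, rose in WT recipients (1.61 ± 0.13 and 0.76 ± 0.08), and Icos and Nt5e, the ectoenzyme CD73, rose in Il6-/- recipients (1.14 ± 0.09 and 1.4 ± 0.14). Each is named where its p was among the 4 smallest of the list, and its mean rose in the other genotype too. In Il6-/- recipients Tnfrsf9 went from 35.3 to 70.6 CPM and Tnfrsf18 from 114 to 151 CPM. In WT recipients Icos went from 617 to 722.5 CPM and Nt5e from 60.5 to 133 CPM. Of the 23 tested, 9 rose and 4 fell in WT recipients, beside 29.5% and 27.1% of all genes, and 8 rose and 3 fell in Il6-/- recipients, beside 30.4% and 30.1%.

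Regulators of Foxp3 were tested as a list of 28 transcription factors, ubiquitin enzymes and chromatin enzymes, all of which passed the filter. On Day 3, 4 were higher and 4 lower in Il6-/- recipients, with a median of -0.02, and on Day 5 1 was higher and 4 lower, with a median of -0.02 (all genes, 13.7% and 4.61% called). Without 1 library, the number called ranged from 5 to 11 of 28 on Day 3 (5 without any 1 WT library or replicate 2 or 3 of Il6-/- recipients) and from 1 to 7 on Day 5 (1 without replicate 1 or 2 of WT or replicate 3 of Il6-/- recipients). Satb1, a genome organizer required for Treg development, was lower on both days, at 235 ± 9.82 CPM in WT against 114 ± 18.9 CPM on Day 3 and 222 ± 36.3 against 124 ± 23.6 CPM on Day 5 (log2 fold changes -1.05 ± 0.14 and -0.84 ± 0.14, adjusted p = 3.0e-04 and 0.0044). Rel, the NF-kappaB subunit c-Rel, which acts on a conserved element of Foxp3, was higher on Day 3 (0.73 ± 0.12, adjusted p = 0.0013), as was Nr4a3, a nuclear receptor (1.00 ± 0.22, adjusted p = 0.0072), and Runx1, a partner of Foxp3, was lower (-0.39 ± 0.09, adjusted p = 0.0090). On Day 5, Cbfb, the binding partner of Runx factors, and Foxo1, a forkhead factor, were lower (-0.66 ± 0.14 and -0.35 ± 0.09, adjusted p = 0.014 and 0.029), and Gata3 was higher (0.35 ± 0.09, adjusted p = 0.038). The call of Cbfb was lost without replicate 1 or 2 of WT or replicate 3 of Il6-/- Day 5 (adjusted p = 0.054, 0.072 and 0.062). Those of Foxo1 and Gata3 were lost with only the groups compared (0.10 and 0.14), that of Foxo1 also without replicate 1 or 2 of WT or replicate 2 or 3 of Il6-/- Day 5 (0.097 to 0.15), and that of Gata3 in 8 of the 12 fits without 1 library, namely without these 4, replicate 2 or 3 of WT Day 3 or replicate 1 or 2 of Il6-/- Day 3 (0.050 to 0.15). In the difference between days 0 of 28 passed with edgeR (8 at an unadjusted p under 0.05), and 2 with DESeq2, both negative. Between the days 16 of 28 rose and 6 fell in WT recipients, beside 29.5% and 27.1% of all genes, and 14 rose and 6 fell in Il6-/- recipients, beside 30.4% and 30.1%. Nr4a1, a T cell receptor-induced nuclear receptor, rose (1.33 ± 0.12 in WT and 1.24 ± 0.12 in Il6-/- recipients), and Ezh2, the Polycomb methyltransferase, fell (-1.42 ± 0.11 and -1.26 ± 0.11). Nr4a3 and Foxp1 rose in WT recipients (2.43 ± 0.22 and 1.00 ± 0.12), and in Il6-/- recipients Foxo3 rose (1.28 ± 0.16) and Cbfb fell (-1.23 ± 0.14). The means of these genes moved the same way in the other genotype. In Il6-/- recipients Nr4a3 went from 8.59 to 22.8 CPM and Foxp1 from 188 to 280.5 CPM. In WT recipients Foxo3 went from 9.18 to 18.9 CPM and Cbfb from 173 to 111 CPM.

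TGF-beta genes, the pathway of Lrrc32 and Itgb8, were tested as a list of 17, of which 11 passed the filter. On Day 3 2 were lower in Il6-/- recipients, beside 6.19% of all genes, and 0 higher with edgeR or DESeq2 (0 at an unadjusted p under 0.05), beside 7.52%, with a median of -0.26, and on Day 5 0 of 11 passed with edgeR, DESeq2 or the replicate block (1 lower at an unadjusted p under 0.05). Tgfb3, a TGF-beta ligand, was at 14.2 ± 1.51 CPM in WT on Day 3 and at 2.98 ± 1.14 CPM in Il6-/- recipients (log2 fold change -2.25 ± 0.31, adjusted p = 2.8e-04), and at 2.5 ± 0.58 and 3.31 ± 1.15 CPM on Day 5. The difference between the days was 2.65 ± 0.44 (adjusted p = 0.0055). Tgfbr2, the ligand-binding receptor, was lower in Il6-/- recipients on Day 3 (-0.44 ± 0.09, adjusted p = 0.0057). Between the days 8 of 11 rose and 1 fell in WT recipients, beside 29.5% and 27.1% of all genes, and 6 rose in Il6-/- recipients, beside 30.4%. Tgfbr2 was among those that rose, by 0.86 ± 0.09 in WT (adjusted p = 1.6e-06) and 1.16 ± 0.09 in Il6-/- recipients (adjusted p = 7.9e-08), the direction of Izumo1r, Nrp1 and Ikzf4. Tgfbr3, a co-receptor, and Ski, a repressor of Smad signaling, rose in both genotypes (0.92 ± 0.09 and 0.90 ± 0.13 in WT, 1.19 ± 0.09 and 1.02 ± 0.13 in Il6-/- recipients), Tgfbr1 was among the 6 in Il6-/- recipients (0.92 ± 0.14), and Tgfb3 was the gene that fell in WT recipients (-2.5 ± 0.31). The WT means of Tgfbr1 rose too, from 14.9 to 24.1 CPM.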

How the data were processed

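RNA-seq libraries of OTII cells (12, 3 per recipient genotype and day) were analyzed from the deposited raw counts per gene symbol. Single-end reads had been trimmed by the authors (Trim Galore 0.4.4), mapped with STAR 2.5.2a on GRCm39, and counted per gene, ignoring strand, by HTSeq 0.6.1p1. A second deposited table holds log2 CPM of 11258 genes, made by the authors with edgeR, and includes 7 of the 9 genes (not Lrrc32 or Itgb8); its values differed from recomputed ones by at most 5e-14.

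Counts were tested in R 4.3.3 with edgeR 4.0.16: filterByExpr on the 4 groups, TMM scaling, and a quasi-likelihood F test with 1 coefficient per group over all 12 libraries, Benjamini-Hochberg adjusted over 13570 genes. Errors of log2 fold changes are SE, and intervals are 95%. On simulated counts for Il6-/- against WT recipients on Day 3 (13135 genes), 80.6% of 196 genes changed 2-fold were recovered, and 4.82% of calls were false. The simulation gave every gene the same dispersion, with no day change and no shared replicate deviations. Its rates are therefore a check of the code and not error rates of the calls reported here. Alternatives used DESeq2 1.42.0 and limma 3.58.1. With 3 against 3 libraries, an exact permutation test of 1 gene cannot go below 0.10. Gene positions, exon lengths and overlaps are from GENCODE vM39; the authors' annotation release is not given in the sources used here.

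Replicate numbers come from the sample titles, and the labels do not say what a number shares. Deviations of same-numbered libraries correlated at 0.129 to 0.243 between genotypes on Day 5, at 0.033 to 0.060 on Day 3, and at -0.071 to 0.071 between days, so the block was read as a pairing on Day 5 only, and blocked differences between the days, which use the Day 3 numbers, are not reported as results. This reading rests on correlations in the same data. The model of the blocked genotype comparisons held block terms for both days.

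The genes and lists were chosen with earlier results of these data known, so counts of each list beside the share of all genes are descriptions. The text names all 9 genes, up to 4 called genes per further list and comparison by smallest p, Il2ra, Ctla4 and the nearest genes by likeness, and Itgav, which was chosen after its values were seen.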

Additional observations from a re-analysis of the deposited data

Results flagged for a closer look

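Of the further lists, 3 of 23 Treg-associated genes and 1 of 11 TGF-beta genes passed in the difference between the days in edgeR. The regulators of Foxp3 had 0 of 28 and the Ikaros family 0 of 5, beside 668 of the 13570 genes tested (4.92%). The 4 genes are named because they passed, so their number is no test. The difference between the days was 2.65 for Tgfb3 (adjusted p = 0.0055), 3.19 for Tigit (adjusted p = 0.015), 0.91 for Icos (adjusted p = 0.0030) and 0.86 for Ccr4 (adjusted p = 0.0499), on the log2 scale. Ccr4 passed in only 2 of the 12 fits that left out 1 library. Tgfb3, Tigit and Icos were lower in Il6-/- recipients on Day 3 and passed in neither direction on Day 5, while Ccr4 did not pass on Day 3 (-0.22 ± 0.17, adjusted p = 0.44) and was higher on Day 5 (0.64 ± 0.17, adjusted p = 0.043).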

How the results depend on the processing

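The alternatives were RLE, upper-quartile and no scaling, no low-count filter, a stricter filter, DESeq2, limma-trend on the deposited table, limma-voom, the replicate block, a 2-fold limit, only the groups compared, and leaving out each library. The number of genes called between genotypes on Day 3 was 2, 1 with the 2-fold limit, and 1 to 2 without 1 library. On Day 5 it was 1, but 2 with RLE scaling, with no scaling or with limma-trend, 3 with DESeq2, 4 with no filter, 6 with the replicate block, 0 with the 2-fold limit and 0 to 3 without 1 library. For the difference between days it was 0, but 2 with no filter, 2 with the replicate block and 0 to 1 without 1 library. The day comparisons stayed within 1.5 times of 7 (WT) and 5 (Il6-/-), counts that include Itgb8. Over all genes, the replicate block moved the number called on Day 5 from 626 to 1592 and that in the difference between days from 668 to 1564; it also moved Day 3 from 1861 to 2658, where, as for the difference between days, the block uses numbers that do not pair the samples. The block changed no other call of the 9 genes. The cause of these differences was not tested.

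Reversed values belonged to comparisons that did not pass. Between the days in Il6-/- recipients, Capg (-0.04) was 0.18 with upper-quartile scaling, 0.11 with no scaling and 0.0072 with limma-trend, and Foxp3 (-0.12) was 0.11 and 0.031 with upper-quartile and no scaling. Izumo1r on Day 3 (0.04) was -0.0026 and -0.018 with these. Without 1 library, log2 fold changes ranged from -0.12 to 0.018 for Capg, from -0.46 to 0.063 for Foxp3 and from -0.44 to 0.88 for Gpr83 between the days in Il6-/- recipients, and from -0.52 to 0.77 for Lrrc32 in WT recipients. Between genotypes they ranged on Day 3 from -0.43 to 0.032 for Gpr83, from -0.0026 to 0.25 for Ikzf4 and from -0.024 to 0.13 for Izumo1r, and on Day 5 from -0.46 to 0.22 for Ikzf4, from -0.35 to 1.01 for Itgb8 and from -0.30 to 0.017 for Ctla4. The difference between days ranged from -0.56 to 0.12 for Ikzf4, from -0.18 to 1.11 for Lrrc32 and from -0.45 to 0.039 for Nrp1. Depth limits Lrrc32 and Itgb8, whose libraries held at most 33 reads.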
